A study of Homo sapiens with 15 samples.

Results

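Integrin subunits that bind collagen, fibronectin, vitronectin or latent TGF-β, and the kindlins that activate integrins, were followed through 5 groups of cultured cells. The groups come from a normal oral line and from oral carcinoma lines. The set was defined by gene symbol and holds 9 genes: ITGA2, ITGA5, ITGAV, ITGB1, ITGB5, ITGB6, ITGB8, FERMT1 and FERMT2. A value was present for 8 of the 9 among the 12995 genes of each table, and ITGB6 was not analysed here. No further filter on low values was applied to the 8.

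RNA was measured by QuantSeq 3′ sequencing, which reads the 3′ end of each transcript, in 15 libraries, 3 in each group. OKF6 is a wild type line from normal oral epithelium, and its labels name no construct. SCC15 and SCC25 are oral squamous carcinoma lines that carry Cas9 with an inducible guide RNA against YBX1, delivered by lentivirus into pools sorted for both fluorescent reporters. The SCC15 -YBX1 and SCC25 -YBX1 cells received doxycycline at 1 µg/ml for 3 days to induce the guide, and SCC15 +YBX1 and SCC25 +YBX1 are the same constructs without doxycycline, so the drug and the loss of YBX1 cannot be told apart. The labels name the construct a YBX1 knockout in treated and untreated cells alike, and the doxycycline arm is called knockdown here. OKF6 and SCC25 grew in a keratinocyte serum-free medium with pituitary extract and EGF, whereas SCC15 grew in DMEM with serum, so line and medium cannot be told apart in any comparison with SCC15. Nothing in the labels says that replicates are separate cultures, and p-values measure the spread between these libraries, which may be technical.

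Integrins are cell surface receptors made of 1 α and 1 β subunit that tie the extracellular matrix to the actin cytoskeleton. ITGB1 is the β subunit with the most partners: with ITGA2 it forms a collagen receptor, and with ITGA5 the main fibronectin receptor. ITGAV pairs with ITGB5 in a vitronectin receptor and with ITGB6 or ITGB8 in receptors that bind and activate latent TGF-β. FERMT1 (kindlin-1) and FERMT2 (kindlin-2) bind the β tails and, with talin, switch integrins to their high affinity state. Kindlin-1 is the epithelial form, whose loss causes the skin disease Kindler syndrome, and kindlin-2 is found in most adherent cells. YBX1 is a DNA and RNA binding protein named for the Y-box, a promoter element built around the letters CCAAT.

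Upstream sequence of the genes is shown because YBX1 was the gene targeted in this experiment and because the genes parted so widely between the lines. The RefSeq promoter table (GRCh38.p14) held 7 of the 8 genes, all but FERMT1. CCAAT or its reverse complement ATTGG was found in 32.0% of all 35116 promoters of 250 bases in that table, and GGGCGG or its reverse complement CCGCCC, the GC box, in 42.6%. Both strands were searched, and neighbouring matches to the GC box may share bases. ITGB8 was the only 1 of the 7 genes with a CCAAT. The sequences below run 5′ to 3′ on the strand of the gene, up to the first base of an annotated exon, and capitals mark CCAAT or GC box matches. ITGB8 (chr7:20330650-20330701, plus strand) is shown for its CCAAT. ITGA2 (chr5:52989102-52989339, plus strand), ITGA5 (chr12:54419267-54419516, minus strand) and FERMT2 (chr14:52951051-52951300, minus strand) are shown as a collagen receptor subunit, a fibronectin receptor subunit and the 1 gene that did not separate the lines. The FERMT2 stretch lies upstream of a start in the RefSeq table, but within the longer span that the GENCODE annotation gives the gene (chr14:52857268-52952435). A match is a description of the letters and not a binding site.
ITGB8: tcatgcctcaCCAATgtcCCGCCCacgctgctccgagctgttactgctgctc
ITGA2: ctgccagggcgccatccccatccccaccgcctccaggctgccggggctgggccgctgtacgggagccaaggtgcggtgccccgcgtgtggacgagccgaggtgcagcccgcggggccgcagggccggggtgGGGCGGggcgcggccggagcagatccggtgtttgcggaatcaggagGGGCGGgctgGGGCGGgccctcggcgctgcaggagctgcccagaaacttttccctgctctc
ITGA5: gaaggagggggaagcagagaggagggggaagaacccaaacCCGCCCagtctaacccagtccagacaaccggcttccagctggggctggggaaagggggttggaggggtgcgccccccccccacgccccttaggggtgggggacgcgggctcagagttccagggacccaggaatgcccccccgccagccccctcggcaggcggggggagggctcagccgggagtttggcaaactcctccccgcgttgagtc
FERMT2: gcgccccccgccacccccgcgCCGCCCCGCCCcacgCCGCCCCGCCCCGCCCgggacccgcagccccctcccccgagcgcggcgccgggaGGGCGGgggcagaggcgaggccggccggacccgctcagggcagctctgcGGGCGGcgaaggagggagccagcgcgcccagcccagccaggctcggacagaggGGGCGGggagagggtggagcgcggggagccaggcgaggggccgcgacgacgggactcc
FERMT2 held 8 GC box matches, ITGA2 3, and ITGA5 and ITGB8 1 each in the stretches printed.

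The libraries held 4075290 to 6118501 counted reads, and a single read was worth 0.138 to 0.226 CPM (counted reads scaled to a common library size). Values are given as log2 CPM, in which 1 unit is a doubling and a library with no read for a gene falls below -3. YBX1 itself was at 5.11, 5.56 and 6.00 in SCC15 +YBX1 and at 3.36, 3.71 and 3.13 in SCC15 -YBX1. In SCC25 it was at 6.74, 6.31 and 6.62 without and at 5.26, 4.70 and 3.65 with doxycycline, and in OKF6 at 6.76, 8.15 and 8.37. Treated and untreated libraries did not overlap in either line, although the difference did not pass the adjusted test (SCC15 -2.15, adjusted p = 0.326; SCC25 -2.01, adjusted p = 0.290, limma). The targets of the guides were not mapped here, and 3′ reads need not report an edit elsewhere in the gene.

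The lines were checked against markers of oral keratinocytes. The summed level of 13 keratinocyte markers was 26923 to 34633 CPM in OKF6 and 12034 to 26066 CPM over the SCC25 libraries, but 163 to 215 CPM over the SCC15 libraries. KRT15, TP63, DSG3 and GRHL2 were at 3 reads or fewer in every SCC15 library, while DSP and PERP kept means of 6.53 and 6.64 log2 CPM in SCC15 +YBX1. The identity of the SCC15 cells was not tested. The 8 measured mesenchymal markers summed to 210 to 329 CPM in OKF6, 394 to 469 CPM in SCC15 and 517 to 1309 CPM in SCC25. VIM, vimentin, carried most of the sum in the untreated carcinoma lines, at means of 9.67 log2 CPM in SCC25 +YBX1 and 8.29 in SCC15 +YBX1. Of the 8, CDH2, ZEB1, ZEB2 and LUM were higher in SCC15 +YBX1 than in SCC25 +YBX1 and VIM, SNAI2 and COL1A1 lower (median 1.43), and 5 were higher and 1 lower in SCC15 +YBX1 than in OKF6 (median 2.89). All 13 keratinocyte markers were lower in SCC15 +YBX1 than in OKF6 and in SCC25 +YBX1 (limma, adjusted p under 0.05), and the part of either list in the differences below was not tested.

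**Figure D1:**
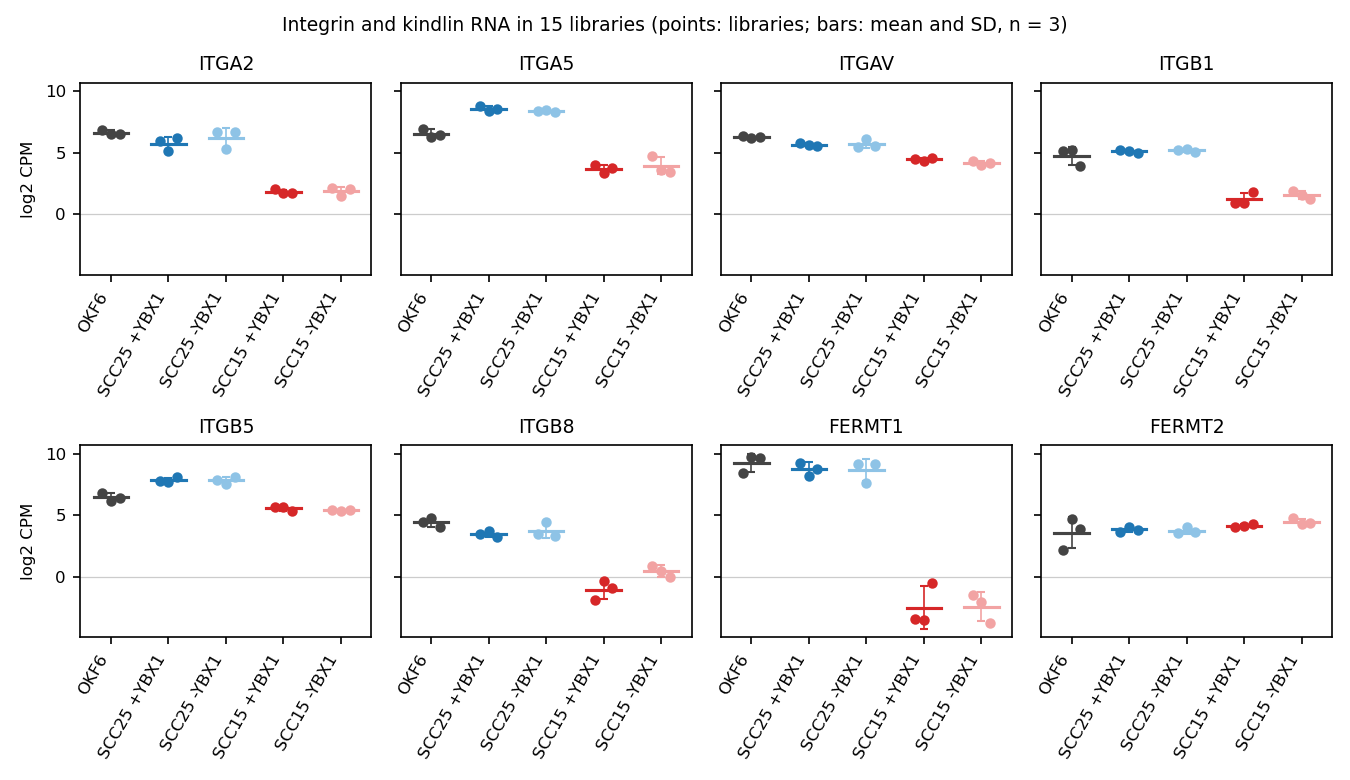
Level of each gene in every library as log2 CPM (vertical axis, shared by all panels) for the 5 groups. Points are libraries, long bars are means and thin bars are SDs of 3 libraries. All genes but FERMT2 lie lower in both SCC15 groups than in OKF6 and SCC25, and FERMT1 in SCC15 sits at 0 to 4 reads.

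The comparison of the untreated carcinoma lines asked how their integrin genes differ. Of the 8 genes, 7 were lower in SCC15 +YBX1 than in SCC25 +YBX1 and none was higher (limma, adjusted p under 0.05), where 43.6% of all genes were called in either direction. The libraries of both groups did not overlap for those 7, a separation that 66.6% of all genes showed. The median log2 difference was -3.90 over the 8 genes and -0.01 over all genes. In bulk RNA, fewer cells that express a gene and less RNA per cell cannot be told apart.

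FERMT1, the epithelial kindlin, differed most. It was at 9.27, 8.20 and 8.77 log2 CPM in SCC25 +YBX1 and at -3.46, -3.57 and -0.53 in SCC15 +YBX1, the latter from 0, 0 and 4 reads. Pooled over libraries, 6887 reads stood against 4, a 2029-fold ratio with a 95% counting interval of 792 to 7447, which covers counting error only. The fitted log2 difference of -11.27 (SE 0.72, adjusted p = 7.2e-07, limma) depends on the 0.5 reads added to every count, and is -9.80 with 2 reads added. In SCC15 +YBX1 the keratins KRT5 and KRT6A ranged from 2 to 53 and from 0 to 75 reads. Both were highest in replicate 3, the library with the 4 FERMT1 reads.

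FERMT2, the broadly expressed kindlin, did not separate the lines. Its levels were 4.03, 4.15 and 4.26 log2 CPM in SCC15 +YBX1 and 3.67, 4.06 and 3.77 in SCC25 +YBX1. The groups overlapped, and the difference of 0.32 had a 95% interval of -0.86 to 1.49 (limma, adjusted p = 0.660). That interval takes in the spread of OKF6, where FERMT2 was at 2.17, 4.72 and 3.85, and in a fit of the compared groups alone the standard error of the FERMT2 difference was 0.22 (adjusted p = 0.231, limma).

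The α subunits followed. ITGA5, the α chain of the fibronectin receptor, was at 8.84, 8.41 and 8.53 log2 CPM in SCC25 +YBX1 and at 4.01, 3.37 and 3.77 in SCC15 +YBX1, 29.3-fold lower (log2 difference -4.87, SE 0.24, adjusted p = 1.8e-07, limma). ITGA2, the α chain of a collagen receptor, was at 5.96, 5.14 and 6.17 in SCC25 +YBX1 and at 2.03, 1.72 and 1.73 in SCC15 +YBX1, lower in each library (log2 difference -3.93, SE 0.29, adjusted p = 2.0e-06). ITGAV, the α chain shared by ITGB5, ITGB6 and ITGB8, showed the smallest called difference. Its levels were 5.78, 5.64 and 5.58 against 4.54, 4.32 and 4.55, 2.29-fold lower in SCC15 (-1.20, SE 0.18, adjusted p = 0.00033). In none of the 3 genes did a SCC15 library reach a SCC25 library.

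Among the β subunits, ITGB8, a TGF-β activating partner of ITGAV, was at 3.46, 3.71 and 3.21 log2 CPM in SCC25 +YBX1 and at -1.87, -0.40 and -0.89 in SCC15 +YBX1. The SCC15 values rest on 1, 4 and 3 reads, and the pooled ratio of SCC25 to SCC15 was 24.7 with a counting interval of 12.3 to 58.3 (fitted log2 difference -4.51, SE 0.48, adjusted p = 2.3e-05, limma). ITGB5, the partner chain of ITGAV in the vitronectin receptor, stayed well expressed in SCC15. It was at 7.81, 7.71 and 8.06 in SCC25 +YBX1 and at 5.67, 5.67 and 5.33 in SCC15 +YBX1, 4.94-fold lower (-2.30, SE 0.21, adjusted p = 9.3e-06).

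ITGB1, the common β chain, was at 5.24, 5.14 and 5.01 log2 CPM in SCC25 +YBX1 and at 0.94, 0.96 and 1.86 in SCC15 +YBX1, from as few as 10 reads. The log2 difference was -3.88 (SE 0.42, adjusted p = 2.7e-05, limma), and 533 pooled reads against 44 gave a ratio of 14.3 with a counting interval of 10.5 to 19.9. These values are uncertain in level. Of 86 pieces of 75 bases cut from the last 500 bases of the ITGB1 transcript, 70 (81.4%) matched hg38 equally well at chr19:14622868-14623287, within ADGRE3, and the way such reads were counted is not given in the sources used here. For the other 7 genes and YBX1 the number was 0 of 86. The annotation also places an lncRNA on the opposite strand at the 3′ end of ITGA5 (GPR84-AS1), ITGAV and FERMT2, and whether the counting used strand is not stated.

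**Figure D2:**
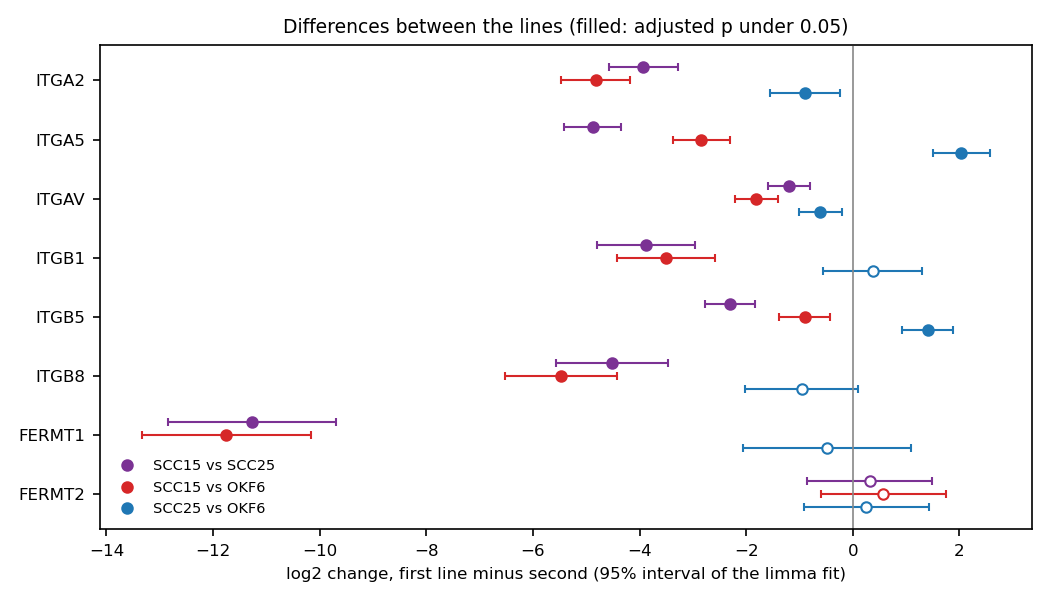
Log2 difference between lines (horizontal axis, first line minus second) for each gene, with the 95% interval of the limma fit. Filled points passed an adjusted p of 0.05. Both comparisons with SCC15 lie left of 0 for all genes but FERMT2, while SCC25 against OKF6 spreads to both sides, from -0.96 for ITGB8 to 2.03 for ITGA5.

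Against the normal line, SCC15 +YBX1 again had 7 of the 8 genes lower and none higher, where 50.3% of all genes were called. The same 7 did not overlap between the groups, as did 54.4% of all genes. This comparison shares its SCC15 libraries with the one above, and its OKF6 libraries with the one of SCC25 and OKF6. FERMT1 was at 8.39, 9.70 and 9.61 log2 CPM in OKF6, and 10089 pooled reads against 4 gave a ratio of 2900 (counting interval 1132 to 10644). ITGB8 was at 4.40, 4.79 and 4.07 in OKF6, a pooled ratio of 47.6 (23.9 to 111) over SCC15. The fitted log2 differences were -4.82 for ITGA2, -3.51 for ITGB1, -2.84 for ITGA5, -1.81 for ITGAV and -0.90 for ITGB5 (highest adjusted p = 0.0049, limma). Among the called genes ITGB5 differed least, with OKF6 at 6.83, 6.14 and 6.41 and no SCC15 library above 5.67. FERMT2 differed by 0.57 with an interval of -0.60 to 1.74 (adjusted p = 0.396), a value that turned to -0.14 without OKF6 replicate 1. Setting the library medians equal moved the median of all genes up by 0.16 in this comparison and by 0.15 in that of SCC15 with SCC25, and all 7 calls held in both.

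SCC25 +YBX1 and OKF6, which shared a medium, differed in fewer of the genes and in both directions. Of the 8, 2 were higher and 2 lower in SCC25, where 30.2% of all genes were called, and 5 did not overlap, as did 43.3% of all genes. ITGA5 was 4.09-fold higher in SCC25 (2.03, SE 0.24, adjusted p = 0.00017, limma), with OKF6 at 6.96, 6.29 and 6.43 log2 CPM. ITGB5 was 2.64-fold higher (1.40, SE 0.21, adjusted p = 0.00086). Every SCC25 library exceeded every OKF6 library for both genes.

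ITGA2 and ITGAV were slightly lower in SCC25 than in OKF6. ITGA2 was at 6.89, 6.49 and 6.57 log2 CPM in OKF6, and the difference of -0.90 (SE 0.29) had an adjusted p of 0.0410 (limma). ITGAV was at 6.37, 6.22 and 6.25 in OKF6, with a difference of -0.61 (SE 0.18, adjusted p = 0.0269). Both calls lay near the threshold. That of ITGA2 was lost without OKF6 replicate 1, 2 or 3 or SCC25 +YBX1 replicate 1 or 2 (adjusted p of 0.0504 to 0.169) and in a fit of the compared groups only (0.0612), and that of ITGAV without SCC25 +YBX1 replicate 1, 2 or 3 (0.0574, 0.0915 and 0.0964). Both calls were also lost in a fit without a variance trend (0.0605 for ITGA2 and 0.0513 for ITGAV, limma). Adjusted p ranged from 0.0237 to 0.169 for ITGA2 and from 0.0198 to 0.0964 for ITGAV over all alternatives.

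The other 4 genes did not pass the test between SCC25 and OKF6. ITGB8 differed by -0.96 with an interval of -2.01 to 0.09 (limma, adjusted p = 0.154), although no SCC25 library reached an OKF6 library. With precision weights on the reads its adjusted p was 0.0440, against a range of 0.0440 to 0.334 over the alternatives. ITGB1 was at 5.14, 5.23 and 3.90 log2 CPM in OKF6, a difference of 0.37 (-0.55 to 1.29) that became -0.06 without OKF6 replicate 3. FERMT1 differed by -0.49 (-2.07 to 1.096), and FERMT2 by 0.25 (-0.92 to 1.42), which became -0.45 without OKF6 replicate 1.

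The order of the groups differed between genes. By mean level, ITGA2, ITGAV, ITGB8 and FERMT1 were highest in OKF6, ITGA5 and ITGB5 in SCC25 +YBX1, ITGB1 in SCC25 -YBX1 and FERMT2 in SCC15 -YBX1. For ITGA5 and ITGB5 the lines formed 3 separate levels, with SCC25 above OKF6 and OKF6 above SCC15, and no overlap between neighbouring lines. For ITGAV they did so in another order, with OKF6 at 6.28 ± 0.08 (SD, n = 3), SCC25 -YBX1 at 5.72 ± 0.34, SCC25 +YBX1 at 5.67 ± 0.10, and both SCC15 groups below. For ITGA2, ITGB1 and FERMT1, OKF6 overlapped its SCC25 neighbour, and the only step without overlap was the one down to SCC15, of 3.85, 3.19 and 11.11 log2 units. FERMT2 overlapped at every step except the top one, between SCC15 -YBX1 at 4.46 ± 0.23 and SCC15 +YBX1 at 4.15 ± 0.12.

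Over the 15 libraries FERMT1 tracked the 6 integrin genes, with Pearson r from 0.83 with ITGB5 to 0.97 with ITGB1, whereas FERMT2 ran against all 7 others, from -0.39 with ITGB8 to -0.55 with ITGA2. These coefficients describe 15 libraries of 3 lines, and the points share line, medium and depth. The genes with the profile most like a member were chosen as the 3 highest r each. For FERMT1 they were S100A16, LAMB3 and S100A2 (all 0.995), where LAMB3 encodes a laminin chain of the epidermal basement membrane. For ITGA5 they were CDA, SERINC2 and CCND1 (0.995, 0.991 and 0.989), the last of them cyclin D1. ITGAV followed DSG3, a keratinocyte desmosomal cadherin, LGALS9C and SPINT2, at 0.98 to 0.99. The nearest genes were TMEM156, ANXA8L1 and IRS1 for ITGA2 and ADGRG1, SLFN12 and PLCH2 for ITGB1, all at 0.99. ITGB5 was nearest to ABCA13, SERPINE2 and ARMCX2, and ITGB8 to MYOF, AKR1C2 and ITCH at 0.98. FERMT2 had the loosest likeness, to CMTR1, CNTROB and PYGO2 at 0.95, 0.93 and 0.92.

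Other integrin genes moved in both directions between the carcinoma lines. Of 9 other genes with a value, integrin subunits and FERMT3, 2 were higher and 5 lower in SCC15 than in SCC25 (median -2.47), a called share of 77.8% where that of all genes was 43.6%. ITGA3, ITGB4 and ITGA6, the laminin receptors of basal keratinocytes, were 84.9-fold, 67.1-fold and 57.7-fold lower. The leukocyte subunit ITGB2 was 13.5-fold lower, at a mean of only -0.86 log2 CPM in SCC15 +YBX1. ITGA4, partner of ITGB1 in a fibronectin and VCAM1 receptor, was 6.81-fold higher in SCC15, and ITGA1, a collagen receptor chain, 3.11-fold. In SCC25 +YBX1, ITGA4 was at 1 to 6 reads and ITGA1 at a mean of -0.07 log2 CPM, so these folds rest on few reads. The ITGA1 call was lost without SCC15 +YBX1 replicate 1 or 2 or SCC25 +YBX1 replicate 1 or 2 (highest adjusted p = 0.0728, limma).

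Of 48 measured adaptors and signalling proteins, 3 were higher and 28 lower in SCC15 than in SCC25 (median -1.20), a called share of 64.6% against 43.6% of all genes. The 3 that were higher were FLNC, a muscle type filamin, FYN, a Src family kinase, at a log2 difference of 1.94, and TLN2, a talin, at 1.65. FLNC rested on 95 pooled reads in SCC15 against 5 in SCC25, a ratio of 16.1 with a counting interval of 6.67 to 50.8. TNS4, a tensin of epithelia, was at 4 pooled reads in SCC15 (4523 in SCC25, a ratio of 1332 with a counting interval of 520 to 4892). The log2 difference was -3.97 for the tetraspanin CD82 and -3.87 for PTK2B, a relative of focal adhesion kinase. CD82 was at a mean of only -0.81 log2 CPM in SCC15 +YBX1. NEDD9, a docking protein of focal adhesions, had no read in SCC15 +YBX1 and 116 to 240 in SCC25 +YBX1, at least 62.9-fold lower against a floor of 3 reads per library. With precision weights on the reads the CD82 call was lost (adjusted p = 0.1001, limma).

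Of 26 measured ligands of these integrins, 2 were higher and 13 lower in SCC15 than in SCC25 (median -1.32), a called share of 57.7% against the same 43.6%. FN1, fibronectin, was 111-fold lower in SCC15, and THBS1, thrombospondin 1, was at 5 pooled reads there against 11310 in SCC25, a ratio of 2665 with a counting interval of 1142 to 8210. TNC, tenascin C, had no read in SCC15 +YBX1 (at least 46.8-fold lower), and SPP1, osteopontin, was at 0 or 1 reads there (at least 3.13-fold lower). LAMA4, a laminin chain of vessels and mesenchyme, was at least 12.1-fold higher in SCC15, and FBN2, a fibrillin, differed by 1.27. The FBN2 call was lost without any 1 of the 6 libraries, SCC15 +YBX1 or SCC25 +YBX1 replicates 1, 2 and 3 (adjusted p of 0.0565 to 0.141, limma). It was also lost with precision weights on the reads (0.0632).

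Relative to OKF6, SCC15 had 3 of the 9 other subunits, FERMT3 included, higher and 3 lower (median -0.34, all genes 0.10). The called share was 66.7% of these subunits, 70.8% of the adaptors and 61.5% of the ligands, where it was 50.3% of all genes. The log2 differences of ITGB4, ITGA6 and ITGA3 were -6.85, -6.72 and -5.47. ITGA7 (at least 13.2-fold) and ITGA4 (at least 6.52-fold), each at 0 or 1 reads in OKF6, and ITGAE (2.88-fold) were higher. Among adaptors 5 were higher and 29 lower of 48 (median -0.97), led by PARVB, a parvin, at 4.91, TLN2 at 2.77, FLNC (at least 7.82-fold) and LIMS2, a PINCH protein (at least 2.09-fold), against TNS4 (pooled ratio of OKF6 to SCC15 1594, counting interval 622 to 5852), CD82 at -6.39, FBLIM1 at -3.82 and NEDD9 (at least 13.1-fold lower). The CD82 value again rests on its low level in SCC15 +YBX1. Among ligands 4 were higher and 12 lower of 26 (median -0.69). LAMA4 (at least 11.1-fold), FBN1 (at least 2.02-fold), TGFB3 (at least 2.26-fold) and LTBP1 (4.96-fold) were higher, whereas THBS2 (at least 303-fold) and TNC (at least 80.7-fold) were lower, as were THBS1 (pooled ratio of OKF6 to SCC15 1310, 561 to 4036) and FN1, 56.1-fold.

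SCC25 differed from OKF6 in 8 of the 9 other subunits, 6 of them higher (median 1.26, all genes 0.13). The called share was 88.9% of the subunits, 27.1% of the adaptors and 50% of the ligands, where it was 30.2% of all genes. ITGB2 was 10.7-fold and ITGA7 at least 8.26-fold higher, while ITGA1 was 4.78-fold and ITGA6 1.83-fold lower. Means were only -0.52 log2 CPM for ITGB2 in OKF6 and -0.07 for ITGA1 in SCC25 +YBX1. FERMT3, the kindlin of blood cells, was called as higher on 38 pooled reads in SCC25 against 4 in OKF6, a ratio of 9.74 with a counting interval of 3.51 to 37.6. ITGA4 was called as higher on 1 to 6 reads in SCC25 against 0 or 1 in OKF6. The FERMT3 call was lost without OKF6 replicate 2 or 3 or SCC25 +YBX1 replicate 1 or 3 (highest adjusted p = 0.0661, limma), and that of ITGA4 without OKF6 replicate 1 or 3 or SCC25 +YBX1 replicate 1 or 2 (highest 0.146). Both calls were also lost under quantile normalization (0.0975 for FERMT3 and 0.736 for ITGA4), and that of ITGA4 with 2 reads added (0.0851) or with the compared groups alone (0.0714). Of the adaptors 7 were higher and 6 lower of 48 (median 0.16). PARVB was higher by 4.96, TNS1 by 3.56, NEDD9 by 2.26 and LIMS2 at least 3.51-fold, against -1.52 for YES1, -1.38 for FYN and -1.31 for TES.

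Of the 26 ligands, 7 were higher and 6 lower in SCC25 than in OKF6 (median 0.53). FBN1 (at least 7.04-fold), TGFB3 (at least 2.81-fold) and SPP1 (at least 2.52-fold) were higher, and THBS2 (at least 266-fold), LAMA5 (3.46-fold), FBN2 (3.10-fold) and LAMB1 (2.66-fold) lower. CCN2, a matricellular target of YAP and TGF-β, was 8.96-fold higher at an adjusted p of 0.0495. This call was lost without OKF6 replicate 2 or 3 or SCC25 +YBX1 replicate 2 or 3 (adjusted p of 0.0520 to 0.186, limma) and under 6 other alternatives, namely the compared groups alone, equal library medians, quantile normalization, no trend, a robust fit and precision weights (0.0502 to 0.104). That of FBN2 was lost without OKF6 replicate 3 or SCC25 +YBX1 replicate 1 or 2 (0.0581 to 0.0783) and with the compared groups alone (0.0629).

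None of the 8 genes passed the test for a change on YBX1 knockdown in SCC25. The fit did not use the same-numbered pairs, and YBX1 itself did not pass in it (-2.01, adjusted p = 0.290, limma). A missing call is therefore no evidence that a gene did not change. No gene of the 12995 passed an adjusted p of 0.05 (limma, 0%), with or without precision weights, while 401 genes (3.09%) had an unadjusted p under 0.05 and 950 (7.31%) did not overlap between the groups. Without SCC25 -YBX1 replicate 2, 6 genes passed, none of them a member. None of the members had an unadjusted p under 0.05, and none separated the groups. The log2 differences, treated minus untreated, were 0.47 for ITGA2 (interval -0.36 to 1.295), 0.28 for ITGB8 (-0.73 to 1.296), 0.07 for ITGB1 (-0.59 to 0.73) and 0.05 for ITGAV (-0.37 to 0.47). They were -0.03 for ITGB5 (-0.39 to 0.34), -0.08 for FERMT1 (-1.73 to 1.56), -0.09 for FERMT2 (-0.58 to 0.41) and -0.17 for ITGA5 (-0.78 to 0.43). The intervals of ITGAV and ITGB5 stay within 0.5 log2 units of 0, while that of FERMT1 reaches beyond 1.5 units on both sides.

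ITGA2 was higher in each of the 3 same-numbered SCC25 pairs, by 0.72, 0.14 and 0.55 log2 units. Its treated libraries, at 6.68, 5.28 and 6.72 log2 CPM, nevertheless overlapped the untreated ones. FERMT1 was at 9.18, 7.62 and 9.19 in SCC25 -YBX1, where replicate 2 was low in both arms. In that treated library the 10 most abundant genes took 16.2% of reads, the most of any library, against 8.43% to 14.5% elsewhere.

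In SCC15 knockdown also left no gene past an adjusted p of 0.05 (limma, 0%, with or without precision weights), while 302 genes (2.32%) had an unadjusted p under 0.05 and 915 (7.04%) did not overlap. This fit did not use the pairs either, and YBX1 itself did not pass in it (-2.15, adjusted p = 0.326, limma). ITGB8 had the largest difference among the members. It was at 1, 4 and 3 reads without and at 13, 8 and 6 with knockdown, that is at -1.87, -0.40 and -0.89 and at 0.90, 0.45 and -0.04 log2 CPM. The groups did not overlap, each pair was higher with knockdown (2.77, 0.85 and 0.85) and the difference of 1.49 (SE 0.47) had an unadjusted p of 0.0071, but the adjusted p was 1.00. The pooled ratio was 3.00 with a counting interval of 1.33 to 7.65, and the treated level remained 3.02 log2 units below that of SCC25 +YBX1.

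ITGAV and FERMT2 also separated the SCC15 groups, by small amounts and in opposite directions. ITGAV was at 4.30, 4.002 and 4.20 log2 CPM with knockdown, all below the untreated libraries (-0.31, interval -0.73 to 0.12, adjusted p = 1.00, limma). FERMT2 was at 4.73, 4.31 and 4.34, all above them (0.31, -0.18 to 0.81, adjusted p = 1.00). With ITGB8, 3 of the 8 genes separated the groups, against 7.04% of all genes. The log2 differences of the others were 0.32 for ITGB1 (-0.34 to 0.98), 0.23 for ITGA5 (-0.38 to 0.83), 0.08 for ITGA2 (-0.75 to 0.90) and -0.16 for ITGB5 (-0.52 to 0.21), and their groups overlapped. FERMT1 was at 2, 1 and 0 reads after and 0, 0 and 4 before knockdown, too few for a fold.

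Whether knockdown acted differently in the lines was tested as the difference of both effects, SCC25 minus SCC15. No gene passed an adjusted p of 0.05 (0%), and 294 genes (2.26%) had an unadjusted p under 0.05, none of them a member. The value was -1.21 for ITGB8 (interval -2.64 to 0.22), -0.40 for FERMT2 (-1.10 to 0.30) and 0.36 for ITGAV (-0.24 to 0.96), all with an adjusted p of 1.00 (limma). The 3 related lists had no called gene in either line: 0 of 9 subunits, 0 of 48 adaptors and 0 of 26 ligands. Their median log2 differences lay between -0.14 and 0.02 in SCC25 and between -0.22 and 0.17 in SCC15.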

How the data were processed

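RNA was measured in 15 libraries of 5 groups of 3, grouped and numbered by the sample labels. In Galaxy, the authors trimmed the QuantSeq 3′ reads (Cutadapt), placed them on hg38 (HISAT2), counted per gene (featureCounts) and normalised with limma. The authors deposited 2 tables of log2 CPM, that is log2 of reads plus 0.5 over the normalized library size, for 9 and 12 libraries with 6 in both. Whole reads were recovered for 100% of values (tolerance 0.01).

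Comparisons between groups used lmFit and eBayes with a variance trend (limma 3.58.1, R 4.3.3), two-sided, over all groups of a table and all 12995 genes, with Benjamini-Hochberg adjustment and a threshold of 0.05. The script was tested on simulated data. The members and lists were chosen with earlier results of these data known. Named were all members and, per list and comparison, up to 4 genes called in each direction with the largest log2 change. Some results of that rule are not reported here. Likeness was Pearson r over 15 libraries. Bounds use a floor of 3 reads per library, and counting intervals are exact at 95%.

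Within a line, treated and untreated libraries of 1 number deviated from their group means with a positive r in every pair. The values were 0.50, 0.31 and 0.12 in SCC15 and 0.14, 0.47 and 0.42 in SCC25 (6497 genes). Libraries of different numbers were not compared, so whether the labels pair them was not tested. The reported knockdown tests did not use the pairs, and no fit paired within each line was made. Alternatives were another scaling, variance prior, filter, number of added reads, precision weights (voom), the replicate block, fewer groups and each library left out. Positions are from GENCODE 44. Pieces of 75 bases at steps of 5 bases were mapped with minimap2 2.31-r1302. Plots were made in Python 3.11.15 (matplotlib 3.10.9).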

Additional observations from a re-analysis of the deposited data

Results flagged for a closer look

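FERMT2, the broadly expressed kindlin, was flagged because its same-numbered pairs had opposite signs in the lines, so those signs are no separate support. It was lower with knockdown in each of the 3 SCC25 pairs (-0.13, -0.01 and -0.13 on the log2 scale) and higher in each of the 3 SCC15 pairs (0.70, 0.16 and 0.08). The difference of both changes, SCC25 minus SCC15, was -0.40 with an unadjusted p of 0.238 and an adjusted p of 1.00 (limma), so it did not pass the test. The SCC25 change turned to 0.02 without SCC25 +YBX1 replicate 2 and to 0.01 without SCC25 -YBX1 replicate 1.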

How the results depend on the processing

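Of 95 recomputed counts of members called, 92 stayed within 1.5 times the reported one, and the 3 that moved belong to SCC25 against OKF6. The knockdown comparisons add little to this figure, since their count of 0 stayed 0 where almost no gene passed. The 7 calls of SCC15 against SCC25 and against OKF6 stayed 7 in every alternative, including the replicate block, which changed no member call in any comparison. Same-numbered libraries of different lines had r of both signs, from -0.20 to 0.26. That range takes in the lowest values within a line, 0.12 for SCC15 replicate 3 and 0.14 for SCC25 replicate 1. The block gave each number a shift shared by all lines of a table, so it is no test of pairs within a line. For SCC25 against OKF6 the count of 4 became 2 without a variance trend and 2 to 3 when a library was left out. Quantile normalization moved the calls over all genes there from 2450 higher and 1473 lower to 2006 and 1837. Of 722 recomputed member changes, 693 kept direction and side of the threshold, 11 lost and 1 gained the call, and 17 turned sign; no change that turned sign had passed the test. With 1 library left out, the FERMT2 change ran from -0.14 to 1.14 in SCC15 against OKF6 and from -0.45 to 0.82 in SCC25 against OKF6, and that of ITGB1 from -0.058 to 0.61 in the latter. Knockdown changes in SCC25 ran from -0.15 to 0.12 for ITGB5, from -0.36 to 0.44 for FERMT1, from -0.24 to 0.024 for FERMT2, from -0.15 to 0.17 for ITGAV and from -0.075 to 0.50 for ITGB8. In SCC15 they ran from -0.033 to 0.28 for ITGA2 and from -0.18 to 0.46 for ITGA5. The difference between the lines ran from -0.63 to 0.0038 for ITGA5 and from -0.22 to 0.58 for YBX1. Quantile normalization gave 0.0067 for ITGB5 in SCC25 and -0.0066 for ITGA2 in SCC15. The cause was not tested. Where an arm was left with 2 libraries the spread was pooled over the groups. The alternatives for YBX1, the list counts and the other named genes were chosen after seeing the data. Of 270 list counts, 244 stayed within 1.5 times the reported one. Of 1011 gene changes, 962 kept direction and side of the threshold.

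Depth limits FERMT1, ITGB8 and ITGB1 in SCC15, and 3 libraries per group limit the knockdown comparisons. A fit of the compared groups only was not made for the difference between the lines, since it takes in every group of its table.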
